A study of Bos taurus with 20 samples.

Results

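The genes described here encode enzymes and carriers of mitochondrial fatty acid oxidation in cattle muscle: CPT1B, SLC25A20 and CPT2 of carnitine-dependent entry, the acyl-CoA dehydrogenases ACADVL, ACADL and ACADM, the hydratase ECHS1, the trifunctional protein subunits HADHA and HADHB, and ETFDH of electron transfer. They were chosen by name, as 10 genes, and every probe set that the platform annotation ties to exactly 1 of these symbols was taken. That gave 11 probe sets for 9 of the genes, of 24128 probe sets on the array, or 9 of 9155 genes with a symbol of their own, because no probe set was annotated to ETFDH, which was not analysed here. The deposited values are linear signal intensities, and 10 of the 11 probe sets were bright enough to be tested among 14409 in all. The 11th, a second probe set of ACADL, is given as values only.

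Total RNA of Musculus longissimus dorsi, a back muscle, was measured in 20 crossbred bulls (Holstein x Charolais F2) on 1 Affymetrix cattle array each. By their labels, 10 bulls had high and 10 had low intramuscular fat (IMF), and the labels give neither the fat values nor an age or treatment. The sample titles carry an animal number with or without an S, and 5 bulls of each IMF group were S-titled while 5 were not. The labels do not say what S stands for, and below the sets are called S-titled animals and other animals. Each bull was sampled once, so the p-values measure the spread between animals of these groups. Whole muscle was extracted, so fewer cells of a type and less RNA per cell cannot be told apart in any value below.

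Long-chain fatty acids enter mitochondria as carnitine esters: CPT1B, the muscle form of the outer membrane transferase, forms them, SLC25A20 carries them across the inner membrane, and CPT2 turns them back into acyl-CoA. A cycle of dehydrogenation, hydration, a further dehydrogenation and thiolysis then shortens the chain, with chain-length specific dehydrogenases at the first step and the trifunctional protein completing the rest for long chains. Electrons of the first step pass to the electron transfer flavoprotein (ETFA and ETFB) and through ETFDH to ubiquinone. Oxidative muscle fibres are known for a high capacity of this pathway.

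The tissue label was checked against muscle genes. The intensities of ACTA1, the actin of skeletal muscle, ran from 12016 to 14308 over the 20 arrays, and those of CKM, muscle creatine kinase, from 13278 to 18295. Array medians ran from 51.6 to 67.6, the lowest being those of high IMF replicate 6 and of high IMF replicate 9 (56.6). In 4 arrays, low IMF replicate 3 and high IMF replicates 6, 8 and 10, the brightest probe set of the liver transcript albumin was between 4871 and 83307, against at most 469 in the other 16. Of the 9 albumin probe sets, these 4 arrays stood above all others in 2, this one and another at 394.7 to 7812 against 7.5 to 63.1, and did not in the other 7. Values without these arrays are given where they alter a call.

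Between high and low IMF bulls none of the 9 genes passed the test (limma, Benjamini-Hochberg adjusted p under 0.05), and none had an unadjusted p under 0.05. Of all tested probe sets 0% passed the adjusted threshold and 7.31% had an unadjusted p under 0.05. The log2 differences, high minus low, ran from -0.14 in ACADM to 0.16 in HADHB, with a median of 0.01 over the 9 genes against -0.03 over all tested probe sets. Between S-titled and other animals 6 of the 9 genes passed: ACADL, ACADM, HADHA and HADHB were lower and ACADVL and CPT1B were higher in the S-titled animals. That share, 66.7%, lies beside a background of 68.1% of all tested probe sets past the same threshold, so the share of genes called is near that of the array as a whole. By direction 33.4% of tested probe sets were higher and 34.7% lower. The values of ACADL, ACADM and HADHA did not overlap between the title series, 3 of the 9 genes (33.3%) and each lower, while 0 were higher without overlap. Of tested probe sets 19.6% did not overlap in either direction, and 9.27% were lower without overlap. The median difference of the 9 genes, S-titled minus other, was -0.17, against 0 over all tested probe sets.

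**Figure D1:**
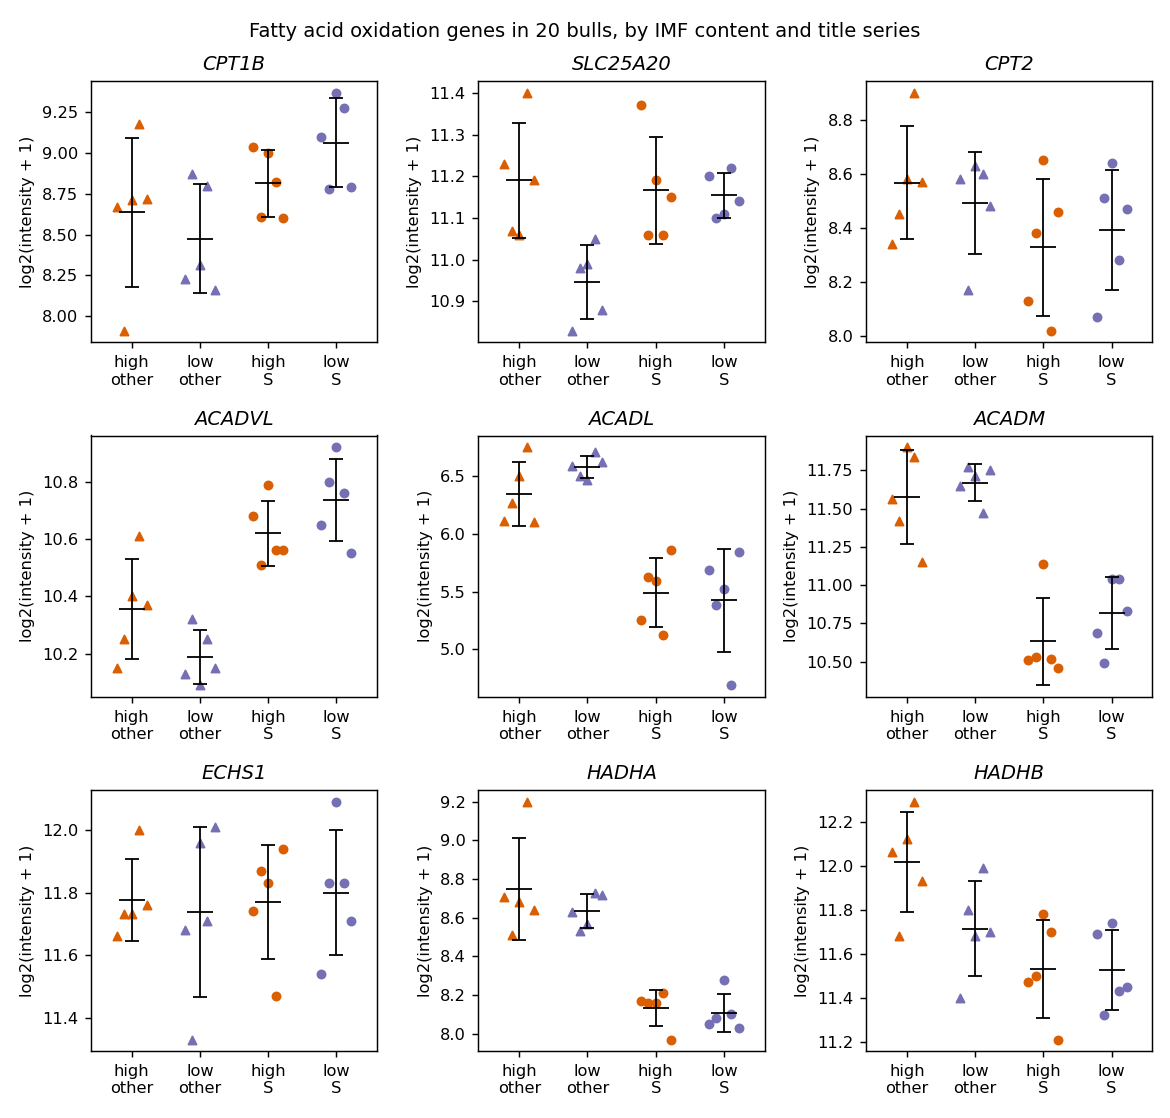
Log2(intensity + 1) of the 9 measured genes in each of 20 bulls, by IMF content (high in orange, low in purple) and title series (triangles for other animals, circles for S-titled animals); each point is 1 animal and the bars are the mean and SD of 5. ACADL, ACADM and HADHA lie lower in all S-titled animals than in any other animal, and ACADVL has means of 10.68 and 10.27 in S-titled and other animals.

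**Figure D2:**
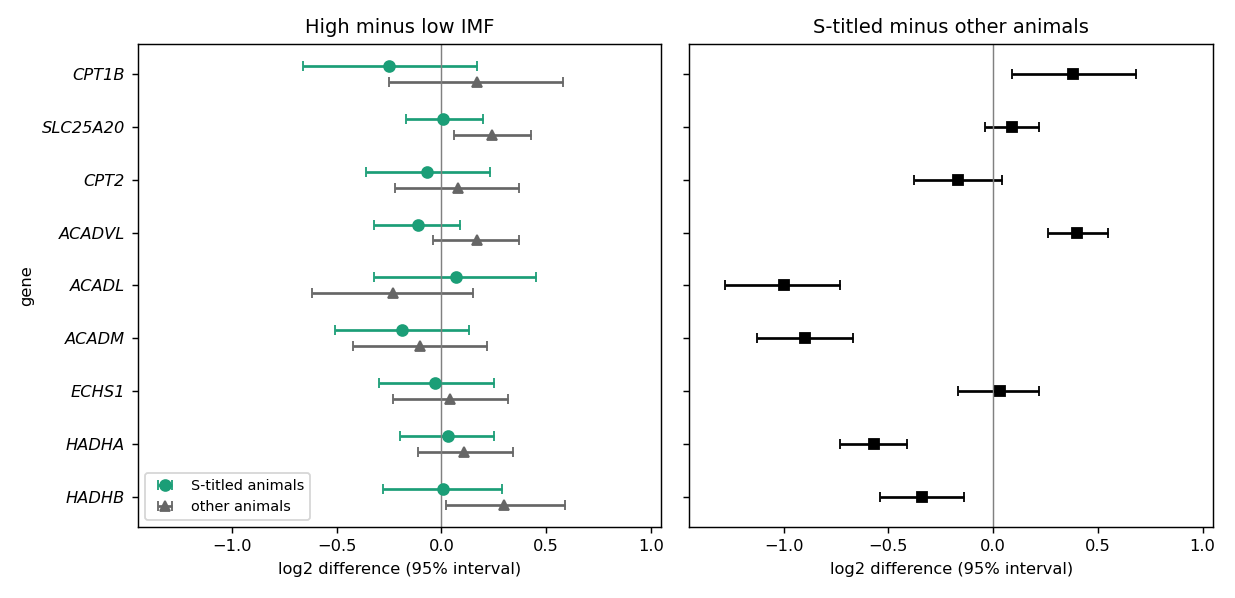
Log2 differences with 95% intervals for the 9 genes: on the left high minus low IMF within S-titled animals (green circles) and within other animals (grey triangles), on the right S-titled minus other animals (black squares), from the limma model over 20 arrays. On the left the interval of SLC25A20 in the other animals runs from 0.06 to 0.43; on the right the upper ends for ACADL and ACADM are -0.73 and -0.67.

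Of the genes of carnitine-dependent entry, CPT1B passed between the title series and none passed for IMF. For CPT1B (NCBI gene 509459) the intensities of the other animals were 406, 239.9, 419, 579.5 and 419 at high IMF and 300.3, 465, 317, 443 and 284 at low IMF. Those of the S-titled animals were 527, 389.5, 512, 451 and 387 at high IMF and 547, 439, 658, 622 and 442 at low IMF. The S-titled values were on the higher side, no S-titled animal was below 387, and the ranges of the title series overlapped. The log2 means were 8.94 ± 0.26 in S-titled and 8.56 ± 0.39 in other animals (SD, n = 10 each), a difference of 0.38 (SE 0.14, limma adjusted p = 0.0204), or 1.31-fold. This call was lost without the 4 arrays with albumin signal (0.31, adjusted p = 0.137) and without the 2 dimmest arrays (0.34, adjusted p = 0.0582). Between IMF groups CPT1B differed by -0.04 (95% interval -0.33 to 0.25). The difference was -0.25 in the S-titled animals and 0.17 in the others, and the test of the change between the title series did not pass (-0.41, SE 0.28, adjusted p = 0.866).

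SLC25A20, the carnitine-acylcarnitine carrier (NCBI gene 518758), was the one gene of the 9 whose IMF groups did not overlap in a title series. In the other animals its intensities were 2408, 2143, 2139, 2698 and 2341 at high IMF and 1824, 2013, 2034, 2121 and 1887 at low IMF. Every high IMF value was above every low IMF value, though the nearest of them, of high IMF replicate 3 and low IMF replicate 4, were close. Among the S-titled animals they were 2652, 2139, 2339.9, 2136 and 2271 at high IMF and 2346, 2196, 2213, 2387 and 2253 at low IMF, and the groups overlapped. Within the S-titled animals none of the 9 genes was without overlap or passed, and 1.33% and 0% of tested probe sets did. The difference among the other animals was 0.24 (SE 0.09, 1.18-fold), with an unadjusted p in the limma fit of 0.0117 and an adjusted p of 1. In this comparison 0% of all tested probe sets passed the adjusted threshold, 0.514% were higher at high IMF without overlap and 3.38% had an unadjusted p under 0.05. Without high IMF replicate 4 the difference was 0.19. In the S-titled animals it was 0.01 (SE 0.09), and the change between the title series did not pass (-0.23, SE 0.12, adjusted p = 0.866). The second probe set of SLC25A20 gave 0.15 (SE 0.08) among the other animals with overlapping groups and -0.06 among the S-titled animals. Over all animals SLC25A20 differed by 0.13 between IMF groups (95% interval 0 to 0.26, adjusted p = 0.671) and by 0.09 between title series (-0.04 to 0.22).

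CPT2 (NCBI gene 504502), the inner membrane transferase, passed in no comparison. Its intensities in the S-titled animals had a lowest, median and highest value of 258, 341 and 401, and in the other animals 288, 381 and 478. The ranges overlapped, and the difference was -0.17 (95% interval -0.38 to 0.04, adjusted p = 0.131). Between IMF groups the difference was 0, with an interval of -0.2 to 0.21.

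All of the 3 acyl-CoA dehydrogenases passed between the title series, but not in the same direction. ACADL and ACADM, which act on long and medium chains, were lower in the S-titled animals. ACADVL, the very-long-chain enzyme of the inner membrane, was higher. Such calls were common, as 68.1% of all tested probe sets passed here, 33.4% higher and 34.7% lower. ACADM (NCBI gene 505968) had intensities of 3010.4, 2742, 3817, 3657 and 2270.1 at high IMF and 3222, 3484, 3354, 2834 and 3443 at low IMF in the other animals. S-titled animals had 1456, 1477, 2250.5, 1464 and 1405 at high IMF and 1648, 1442, 2098, 2111 and 1820.2 at low IMF. Every S-titled animal was below every other animal, though the highest of the former, high IMF replicate 8, and the lowest of the latter, high IMF replicate 5, were close. The log2 means were 10.72 ± 0.27 and 11.62 ± 0.23 (SD, n = 10 each), a difference of -0.9 (SE 0.11, adjusted p = 6.95e-07), to 0.537 of the level of the other animals. Of all tested probe sets, 14.2% were lower by more than 0.75 in this comparison.

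ACADL (NCBI gene 614508) was a dim probe set. Its intensities in the other animals were 67.8, 76.1, 89.7, 106 and 67.6 at high IMF and 95.6, 89.6, 87.5, 104 and 97.7 at low IMF. Those of the S-titled animals were 36.9, 48.6, 47.3, 33.7 and 57.2 at high IMF and 50.5, 40.7, 44.9, 24.8 and 56.3 at low IMF, all below those of the other animals. The difference was -1 (SE 0.13, adjusted p = 1.68e-06), to 0.498 of the level of the other animals. The second ACADL probe set, too dim to be tested, ran from 17.5 to 42.5 in the S-titled and from 34.8 to 48.7 in the other animals, with overlap and a difference of -0.48 (95% interval -0.75 to -0.22). ACADVL (NCBI gene 282130) had 1135, 1219, 1350.1, 1562 and 1325 at high IMF and 1122, 1281, 1091, 1215 and 1138 at low IMF in the other animals. S-titled animals had 1645, 1459.9, 1774, 1507 and 1507 at high IMF and 1600.5, 1783, 1935, 1739 and 1495 at low IMF. A single other animal, high IMF replicate 4, reached into the range of the S-titled animals. The log2 means were 10.68 ± 0.14 in S-titled and 10.27 ± 0.16 in other animals, a difference of 0.4 (SE 0.07, adjusted p = 4.65e-05), or 1.32-fold.

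For IMF content none of the dehydrogenases passed. ACADM differed by -0.14 (95% interval -0.37 to 0.08), ACADL by -0.08 (-0.36 to 0.19) and ACADVL by 0.03 (-0.12 to 0.17). Within the title series ACADM differed by -0.19 (SE 0.15) in the S-titled and by -0.1 (SE 0.15) in the other animals. In ACADVL the difference was -0.11 in the S-titled and 0.17 in the other animals, and its change between the title series was -0.28 (SE 0.14, adjusted p = 0.866).

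Of the enzymes after the first dehydrogenation, both subunits of the trifunctional protein were lower in the S-titled animals and the short-chain hydratase ECHS1 did not pass. Between the title series 68.1% of all tested probe sets passed, and 9.27% were lower without overlap. HADHA (NCBI gene 281810), the alpha subunit with the hydratase and hydroxyacyl-CoA dehydrogenase activities, had intensities of 417, 364, 409.9, 585 and 399 at high IMF and 395, 368, 379, 425 and 419.9 at low IMF in the other animals. The S-titled animals had 288, 285, 284, 296 and 249.6 at high IMF and 264, 269.8, 309, 274 and 260.1 at low IMF, with no overlap between the title series. The log2 means were 8.12 ± 0.09 in S-titled and 8.69 ± 0.19 in other animals (SD, n = 10 each), a difference of -0.57 (SE 0.08, adjusted p = 2.26e-06). The value of high IMF replicate 4 stood above the rest of its group, and without it the difference was -0.51.

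HADHB (NCBI gene 281811), the beta subunit with the thiolase activity, had 4259.8, 3278, 4456, 5023 and 3899 at high IMF and 2698, 3569, 3279.7, 4061 and 3326 at low IMF in the other animals. The S-titled animals had 2845, 2895, 3504, 3331 and 2366 at high IMF and 3293, 2550.1, 3429, 2750.1 and 2791 at low IMF. The S-titled values were lower but overlapped, and the difference was -0.34 (SE 0.1, adjusted p = 0.00448), to 0.792 of the level of the other animals. HADHB and SLC25A20 were the genes of the 9 with an unadjusted p under 0.05 for IMF among the other animals. For HADHB the difference there was 0.3 (SE 0.14, 1.23-fold), with an unadjusted p in the limma fit of 0.0386 and an adjusted p of 1. High and low IMF animals overlapped, and the difference was 0.23 without high IMF replicate 4. In the S-titled animals it was 0.01, and the change between the title series did not pass (-0.29, SE 0.19, adjusted p = 0.866). HADHA differed by 0.07 between IMF groups over all animals (95% interval -0.09 to 0.23) and HADHB by 0.16 (-0.05 to 0.36).

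In the RefSeq gene table of the cattle assembly ARS-UCD2.0, HADHA and HADHB are direct neighbours among protein-coding genes, and no other pair of the 10 genes is. Their log2 values had a Pearson r of 0.69 over the S-titled and 0.68 over the other animals. ECHS1 (NCBI gene 281748), which hydrates the enoyl-CoA of short chains, had a lowest, median and highest intensity of 2844, 3632 and 4344 in the S-titled and 2567, 3391 and 4131 in the other animals. Its differences were 0.03 between title series (95% interval -0.17 to 0.22) and 0.01 between IMF groups (-0.19 to 0.2).

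Electron transfer was represented by the partners of ETFDH, which differed in opposite directions. ETFA, the alpha subunit of the flavoprotein, was lower in the S-titled animals by a log2 difference of -0.57 (SE 0.09, adjusted p = 2.1e-05), and ETFB, the beta subunit, was higher by 0.21 (SE 0.08, adjusted p = 0.0206). For IMF they differed by 0.03 (adjusted p = 0.961) and 0.12 (adjusted p = 0.732).

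The rest of the pathway gave the same picture of calls in both directions between the title series and none for IMF. A further 28 genes were tested in 4 lists (activation and carnitine handling, beta-oxidation, electron transfer, and unsaturated or odd-chain fatty acids). Past the threshold 9 were higher and 9 were lower in the S-titled animals, and 10 did not pass. Calls in both directions were also common over all tested probe sets, 33.4% higher and 34.7% lower. The median difference was -0.11, and 7 of the 28 did not overlap, where 19.6% of all tested probe sets did not. For IMF 0 of 28 passed, with 0 also at an unadjusted p under 0.05 and a median of 0.01.

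In activation and carnitine handling 3 genes were higher and 2 lower past the threshold, of 9 tested, where 68.1% of all tested probe sets passed. The higher ones were SLC25A29, a mitochondrial carrier of basic amino acids (1.1, SE 0.11, adjusted p = 6.76e-08), CRAT, carnitine acetyltransferase (0.36), and SLC22A5, the plasma membrane carnitine transporter (0.35). The lower ones were ACOT13, an acyl-CoA thioesterase (-1.05, SE 0.09, adjusted p = 1.03e-08), and ACSL3, a long-chain acyl-CoA synthetase (-0.55, and -1.09 and -0.76 in its other probe sets). SLC25A29 and ACOT13 did not overlap between the title series.

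Among 9 further beta-oxidation enzymes 3 were higher and 4 lower past the threshold. ACAD9, a dehydrogenase that also serves complex I assembly, was higher by 1.12 (SE 0.08, adjusted p = 7.59e-10), but its second probe set differed by 0.11. ACADS, the short-chain dehydrogenase, was higher by 0.5 and HSD17B10, a short-chain hydroxyacyl-CoA dehydrogenase, by 0.44. ACADSB, the dehydrogenase of short branched chains, was lower (-1.38, SE 0.17, adjusted p = 1.01e-06), as were ACAT1, the acetoacetyl-CoA thiolase (-0.85), and ACAD11 (-0.42). Among the dehydrogenases ACADVL, ACADS and the brighter ACAD9 probe set were higher, and ACADL, ACADM, ACADSB and ACAD11 lower, in the same animals. ACAD10 did not pass (-0.29, limma adjusted p = 0.0513). Such a mix was found over the whole array, with 33.4% of tested probe sets higher and 34.7% lower past the threshold. Of 8 genes for unsaturated or odd-chain fatty acids, the isomerases ECI1 (0.49) and ECH1 (0.36) were higher, and MMUT, methylmalonyl-CoA mutase (-0.76), and PCCA, a propionyl-CoA carboxylase subunit (-0.33), were lower.

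**Figure D3:**
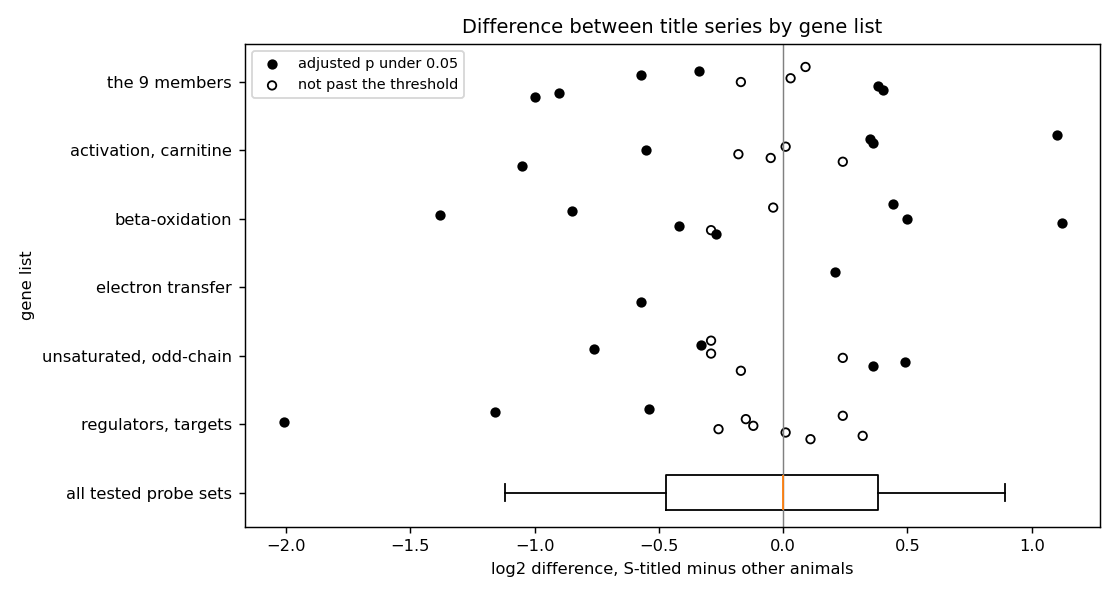
Log2 difference, S-titled minus other animals, of each tested gene of the 9 members and of the other pathway lists; filled points passed an adjusted p under 0.05. The box gives the quartiles of all tested probe sets (-0.47 and 0.38) and its whiskers the 5th and 95th percentiles (-1.12 and 0.89), and the points of each list lie on both sides of 0.

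Of 10 regulators and known targets of the pathway tested, 0 were higher and 3 were lower past the threshold in the S-titled animals. By sign alone 4 were higher and 6 lower, and 68.1% of all tested probe sets passed in this comparison. PDK4, a kinase that holds back pyruvate oxidation, had log2 means of 10.64 ± 1.04 in S-titled and 12.64 ± 0.36 in other animals (SD, n = 10 each), without overlap. The difference was -2.01 (SE 0.33, adjusted p = 2.84e-05), and -2.07 and -2.34 in its other probe sets. PPARGC1A, a coactivator of mitochondrial genes, was lower by 1.16 on the log2 scale (SE 0.21, adjusted p = 6.14e-05), and UCP3, a mitochondrial carrier protein of muscle, by 0.54 (SE 0.12, adjusted p = 0.000462). For IMF the genes with the smallest p in this list were PPARGC1A (-0.43, SE 0.21, adjusted p = 0.671) and ACACB, which makes the malonyl-CoA that inhibits carnitine entry (-0.15, adjusted p = 0.686). PPARGC1A differed by -0.87 in the S-titled (SE 0.29, adjusted p = 0.438) and by 0.01 in the other animals, and ACACB by -0.35 (SE 0.12, adjusted p = 0.445) and 0.05. The change between the title series was -0.87 in PPARGC1A and -0.4 in ACACB and did not pass in either (adjusted p = 0.866). In the 4 other lists the smallest p belonged to ACOT13 (-0.14) and ACOT9 (-0.12), to ACAT1 (-0.14) and ACAD9 (0.08), and to MCEE (0.2) and MMUT (-0.14), beside ETFB and ETFA above, with adjusted p from 0.728 to 0.961.

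Other measures differed between the title series as well. Past the adjusted threshold, 10 of 12 adipocyte markers were higher and 1 lower in the S-titled animals, with a median difference of 1.46. Beside these and the next counts, 33.4% of all tested probe sets were higher and 34.7% lower past it. The summed intensity of the adipocyte markers was 2301 to 29033 in S-titled and 2200 to 6970 in other animals. Of 10 slow fibre markers 0 were higher and 4 lower past the threshold (summed intensity 73281 to 105389 against 92490 to 104843). By sign alone 4 of the 10 were higher and 6 lower. Of 7 fast fibre markers 3 were higher and 1 lower past the threshold (98579 to 104567 against 98200 to 100597). Of 5 macrophage markers 4 were higher past the threshold and 0 lower (679 to 1005 against 317 to 871). ADIPOQ, which defines fat cells, was too dim to be tested and was not among the 12 adipocyte markers. Its intensities ran from 8.8 to 116 in S-titled and from 11.8 to 83.3 in other animals.

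Among the array's own controls, the hybridisation control BioB, added to each sample in a fixed amount, was lower in the S-titled arrays: its 3' probe set ran from 185.7 to 312 there and from 348 to 430 in the other arrays, a difference of -0.82. Differences of BioC and BioD ran from -0.75 to -0.4. Other spiked transcripts of the array's control set went the other way or were mixed: the probe sets of Lys were higher without overlap, by 0.78 to 1.03, and a 5' probe set of Thr differed by -0.98 and a 3' one by 0.09. The part of these differences in the title series differences of the 9 genes was not tested, and whatever S denotes cannot be told apart from a difference in array handling.

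For IMF content the adipocyte markers had a median log2 difference of 0.87, with 0 of 12 past the adjusted threshold and 7 at an unadjusted p under 0.05. Slow fibre markers had a median of -0.14, with 9 of 10 lower, 0 past the threshold and 2 at an unadjusted p under 0.05. Over all tested probe sets 40.2% were higher at high IMF and 7.31% had an unadjusted p under 0.05. The part of either marker list in the IMF values of the 9 genes was not tested. The change of the IMF difference between title series was negative in 8 of the 9 genes, with ACADL as the exception, and passed in 0 of them and in 0% of tested probe sets, with 5.34% at an unadjusted p under 0.05. Over all tested probe sets it had a median of -0.11, against -0.14 over the 9 genes, and with arrays quantile normalized the median of all probe sets was -0.03.

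Over animals of 1 title series the genes varied together in some pairs. Correlations were taken within each title series (n = 10 animals), for 36 pairs, since the series stand apart in several genes. In the other animals 33 of 36 pairs had a positive r, with a median of 0.37 and a range of -0.22 to 0.85. High IMF replicate 4 was the highest of these 10 animals in 7 of the 9 genes, and its part in these r values was not tested. In the S-titled animals 24 of 36 were positive, with a median of 0.18 and a range of -0.48 to 0.8. After adjustment over the 36 pairs 0 passed in either series, with 12 and 4 at an unadjusted permutation p under 0.05. All values of an animal come from the same array.

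Trifunctional protein subunits had an r of 0.68 in the other animals (rho 0.7, permutation p = 0.0299 and 0.0307, adjusted p = 0.14 and 0.408), which was 0.41 without the 2 animals farthest from the HADHA median. In the S-titled animals r was 0.69 (rho 0.66, permutation p = 0.028 and 0.0437, adjusted p = 0.283 and 0.583), and 0.38 without 2 animals. CPT1B and ACADVL had an r of 0.71 in the other animals (rho 0.6, permutation p = 0.018 and 0.074, adjusted p = 0.139 and 0.415) and of 0.76 in the S-titled animals (rho 0.56, permutation p = 0.0138 and 0.0972, adjusted p = 0.248 and 0.583). Without 2 animals these were 0.86 and 0.54. CPT2 and ECHS1 had an r of 0.75 in the other animals (rho 0.56, permutation p = 0.0193 and 0.0968, adjusted p = 0.139 and 0.415) and of 0.8 in the S-titled animals (rho 0.55, permutation p = 0.00488 and 0.105, adjusted p = 0.176 and 0.583). Without 2 animals they were 0.21 and 0.51, so that the relation in the other animals rests on those animals.

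The highest r of all was that of SLC25A20 and HADHB in the other animals, 0.85 (rho 0.68, permutation p = 0.00223 and 0.034, adjusted p = 0.0803 and 0.408), which was 0.62 without 2 animals. The same pair had an r of -0.07 in the S-titled animals (rho -0.14, permutation p = 0.856 and 0.709, adjusted p = 0.932 and 0.918), and the difference between the series was not tested. These are also the genes with an unadjusted p under 0.05 for IMF among the other animals.

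**Figure D4:**
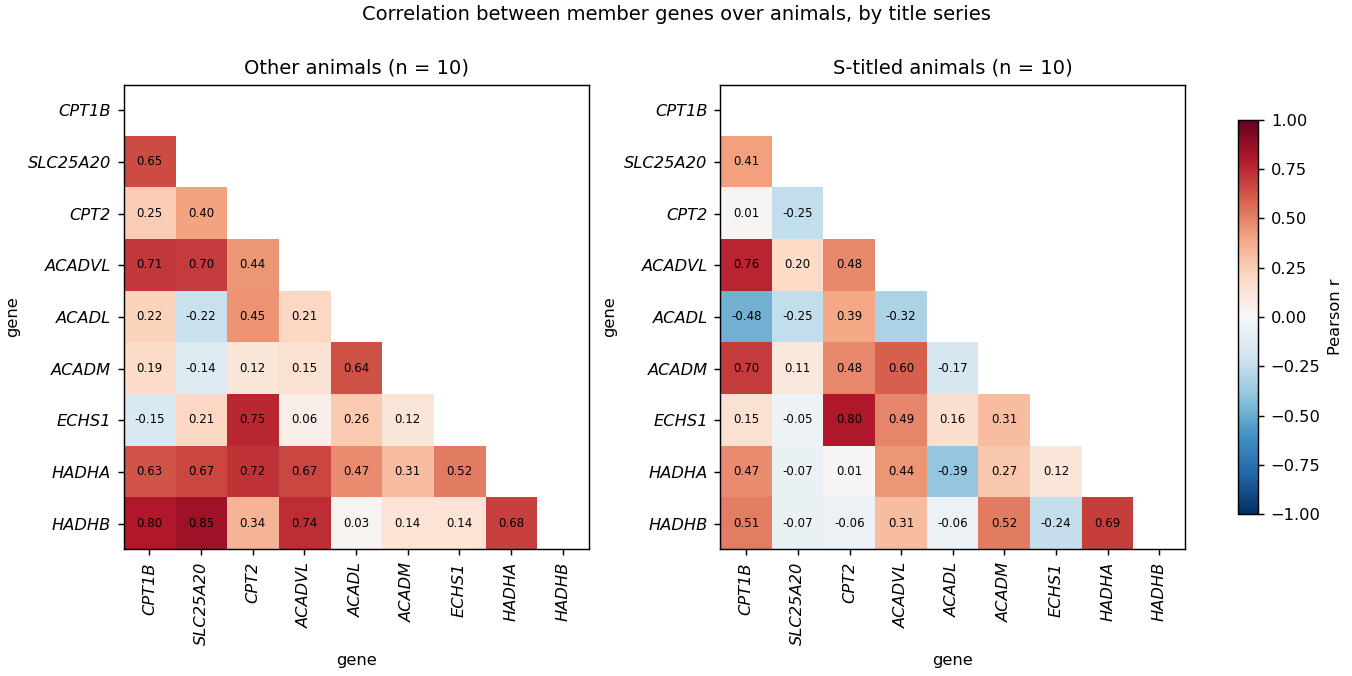
Pearson r between log2 values of each pair of the 9 genes over 10 other animals (left) and 10 S-titled animals (right). HADHA with HADHB, CPT1B with ACADVL and CPT2 with ECHS1 have an r of 0.68 or more in both panels, and SLC25A20 with HADHB goes from 0.85 on the left to -0.07 on the right.

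The genes were also set against the levels of marker lists (mean log2 values) within each title series, over 54 pairs each, of which 0 passed after adjustment. CPT2 and the level of oxidative phosphorylation genes had an r of 0.86 in the S-titled animals (rho 0.73, permutation p = 0.00236 and 0.0207, adjusted p = 0.127 and 0.661), and 0.78 without 2 animals. For the other animals it was 0.71 (rho 0.6, permutation p = 0.0205 and 0.074, adjusted p = 0.276 and 0.741) but -0.11 without 2 animals, on which it rests. ACADM and the slow fibre level had an r of 0.66 in the S-titled animals (rho 0.64, permutation p = 0.0411 and 0.0547, adjusted p = 0.555 and 0.661) and of 0.75 in the others (rho 0.67, permutation p = 0.0113 and 0.0389, adjusted p = 0.23 and 0.701). Without 2 animals these were 0.62 and 0.46. ACADL and the adipocyte level had an r of -0.65 in the other animals (rho -0.68, permutation p = 0.0387 and 0.0342, adjusted p = 0.418 and 0.701), and -0.48 without 2 animals. The S-titled animals gave 0.57 (rho 0.6, permutation p = 0.0869 and 0.0734, adjusted p = 0.555 and 0.661), of the opposite sign, and the difference between the series was not tested.

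Single animals stood high or low across the genes. High IMF replicate 4, of the other animals, was above the mean of its group of 5 in 9 of 9 genes and the highest of the 5 in 8, with a median deviation of 0.28 on the log2 scale, against 0.08 over all tested probe sets. Low IMF replicate 8, of the S-titled animals, was above in 8 of 9 and highest in 6, with a median of 0.22 against 0 over all probe sets. High IMF replicate 8, S-titled and 1 of the 4 arrays with high values of the brightest albumin probe set, was above in 9 of 9 (median 0.17, all probe sets 0.09). High IMF replicate 2 was above in 0 of 9 (median -0.12, all probe sets -0.05). Each deviation is from the mean of the animal's own group of 5, so these values do not compare the IMF groups or the title series.

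**Figure D5:**
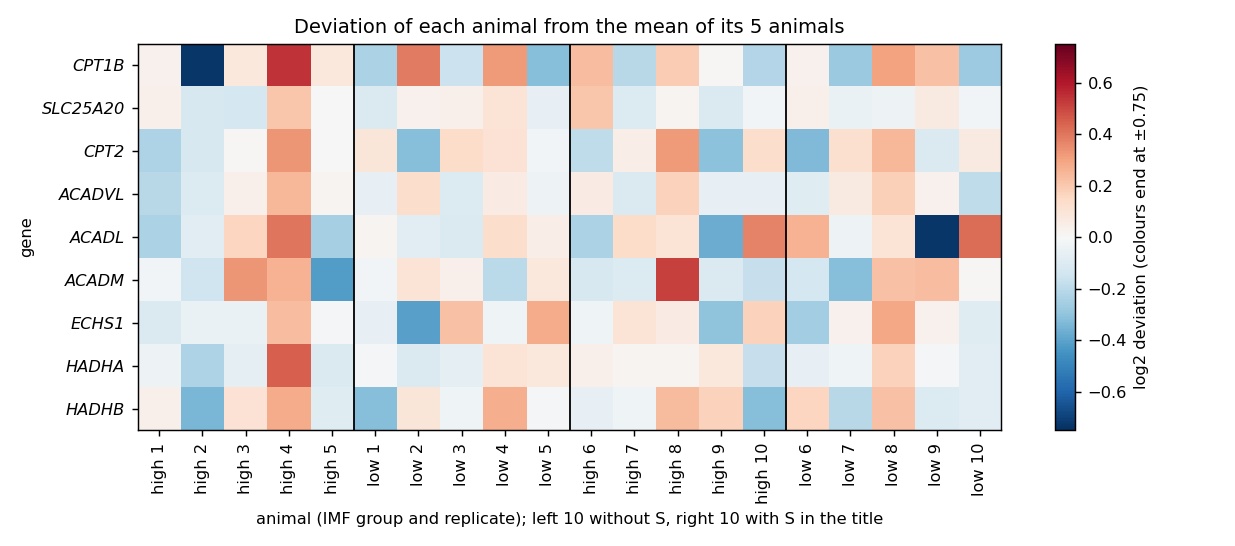
Deviation of each animal's log2 value from the mean of the 5 animals of its IMF group and title series, for the 9 genes (rows) and 20 animals (columns); red is above and blue below the mean, and colours end at ±0.75. The column of high IMF replicate 4 is red in all 9 genes (median 0.28).

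The mean z score of the 9 genes over 20 animals was compared with 8951 probe sets of other genes, including the rest of the pathway. Those that followed it most closely were of NFE2L1, a transcription factor of proteasome genes (Pearson r 0.84), and DTNBP1, dysbindin (0.76). Next were SOAT1, which esterifies cholesterol (0.72), CDC42SE2, an effector of CDC42 (0.72), and SCO1, which delivers copper to cytochrome c oxidase (0.71). All are descriptions, taken as the highest of many values. Within the title series r for NFE2L1 was 0.86 in the S-titled and 0.87 in the other animals, while that of SCO1 was 0.17 and 0.87.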

How the data were processed

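Each of the 20 arrays is 1 animal. The table deposited by the authors holds 1 linear intensity for each probe set and animal. Per the submitters' processing notes, GCOS 1.1.1 and Affymetrix Expression Console 1.1 were used, while how probes were summarised was not stated in any source used here. The deposited normalization was kept. After removal of 112 array controls, the 40% of probe sets with the lowest mean were left out, and deposited intensities were taken as log2(value + 1), a scale on which differences of dim probe sets are understated. No detection calls were used. Of 24128 probe sets 13318 had 1 gene symbol, 86 several and 10724 none.

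A model with 4 means (IMF content by title series) was fitted to 14409 probe sets with limma 3.58.1 (lmFit, eBayes) in R 4.3.3. Tests were two-sided, with Benjamini-Hochberg adjustment over all of them. In simulated data, added log2 changes of 0.3, 0.5 and 1 were called in 14.9%, 58.2% and 95.5% of cases for IMF. Between title series these shares were 19.4%, 61.2% and 95.5%. In each simulation these changes were added to only 67, 67 and 66 of the 14409 probe sets. In the data 68.1% of tested probe sets passed between title series, so the simulated title series shares do not carry over to that comparison. Of all calls in the simulated data 4.27% (IMF) and 7.87% (title series) were false. The submitters' text names a paired t-test, but the labels pair no animals. Correlations used 100000 permutations (smallest possible p 1e-05). Arrays carry no depth, so their number limits the precision.

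Each member is given by its brightest probe set. Of the other pathway lists, genes past the threshold were named (at most 6 a list), otherwise the 2 with the smallest p per comparison. The members and lists were chosen with earlier results of these data known. Alternatives were other normalizations, a larger pseudocount, no filter, the mean over probe sets and each animal left out. The fits without the arrays over 2000 in the brightest of 9 albumin probe sets and without the 2 dimmest arrays, and other normalizations for the correlations, were added after the data were seen.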

Additional observations from a re-analysis of the deposited data

Results flagged for a closer look

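In 3 of the 36 groups of 5 animals examined (9 genes, IMF content by title series), 1 animal lay far from the other 4, beyond Dixon's 95% critical value of 0.71 for the gap over the range. Chance flags about 1 in 20 groups. ACADM in S-titled high IMF replicate 8 had a log2 value of 11.14, where the other 4 ran from 10.46 to 10.53 (ratio 0.895). HADHA in high IMF replicate 4 of the other animals had 9.2, above 8.51 to 8.71 in the other 4 (0.717). HADHA in S-titled high IMF replicate 10 had 7.97, below 8.16 to 8.21 (0.765). The arrays of S-titled high IMF replicates 8 and 10 are also among the 4 with over 2000 in the brightest albumin probe set, and their part in these values was not tested.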

How the results depend on the processing

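No paired analysis was possible because the labels pair no animals between IMF groups. The replicate numbers used here only count the samples within each IMF group, so a shared number does not pair animals. The 6 calls between title series were kept when any 1 animal was left out, and under quantile normalization and median centring. Without high IMF replicate 4, 1 probe set passed for IMF over all animals and 1 among the other animals, both lower and not of these genes (0 to 1 over all animals left out). With arrays centred on their medians, 3 correlations with marker levels passed in the S-titled animals, where 0 did before. Among the levels was the array median signal, which the centring subtracts from the gene values. Correlations with that level can follow from the centring itself, so no conclusion is drawn from the 3. The log2 differences that changed sign were not past the threshold before or after, and the cause was not tested. Under quantile normalization they were HADHA for the change between series (0.02), and CPT2 (0.03) and ECHS1 (0.01, and 0.03 with centred arrays) for IMF in S-titled animals. With the mean over probe sets they were ACADL for IMF (0.01) and SLC25A20 in S-titled animals (-0.02). Without the albumin arrays they were CPT2 (-0.04), ACADVL (-0.03) and ECHS1 (-0.01) for IMF, and SLC25A20 (-0.09) and ACADL (-0.05) in S-titled animals. Without the 2 dimmest arrays they were ACADL for IMF (0.02), CPT2 (0.03) and ECHS1 (0.04) for the change between series, and SLC25A20 (-0.02), CPT2 (0.1), ECHS1 (0.08), HADHA (-0.01) and HADHB (-0.03) in S-titled animals. Leaving out 1 animal at a time gave ranges that crossed 0 for IMF in CPT1B (-0.11 to 0.05), CPT2 (-0.04 to 0.04), ACADVL (-0.01 to 0.05) and ECHS1 (-0.04 to 0.04), and between title series in ECHS1 (-0.02 to 0.07). For the change between series they were ECHS1 (-0.14 to 0.03) and HADHA (-0.14 to 0.03). In S-titled animals they were SLC25A20 (-0.04 to 0.04), CPT2 (-0.15 to 0.01), ACADL (-0.12 to 0.17), ECHS1 (-0.09 to 0.05) and HADHB (-0.05 to 0.09), and in other animals CPT2 (-0.01 to 0.13), ACADM (-0.18 to 0.01) and ECHS1 (-0.06 to 0.11). With 5 animals a cell, dim probe sets such as those of ACADL limit what could be seen.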
